A study of Homo sapiens with 2 samples.

Results

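The solute carrier families SLC1, SLC3, SLC6, SLC7, SLC36, SLC38 and SLC43 hold most of the transporters that carry amino acids across the membranes of human cells. Every gene whose symbol begins with one of these family names and a member number was taken, with all of its probe sets, which gave 62 genes on 147 probe sets out of 19775 genes on 41097 probe sets that each name 1 gene. The SLC6 family gave 19 genes, SLC7 16, SLC38 13, SLC1 7, SLC43 3, SLC3 2 and SLC36 2. Of the 62 genes, 11 are not amino acid transporters: 5 are antisense RNAs, SLC7A6OS is a neighbouring gene named after SLC7A6, SLC6A2, SLC6A3 and SLC6A4 carry monoamines, SLC6A8 carries creatine and SLC43A3 carries purine nucleobases. Some of the amino acid transporters act at the lysosome and not at the plasma membrane, so the genes are described here as transporter families and not by location.

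KG1, an established line from human acute myeloid leukaemia that resembles early progenitor cells, was the only cell type studied. Cultures were electroporated with 1.98 µg of siRNA-Tbet, an siRNA against the transcription factor T-bet, or with 1.98 µg of siRNAc, a control siRNA. After a rest of 5 h both received the cytokine IL-18 at 10 ng/ml for 12 h. Electroporation and IL-18 were thus shared by both groups, and the siRNA was the only planned difference. Differences between the cultures or arrays themselves cannot be told apart from those of the siRNA. Each group was 1 Affymetrix array made from 1 µg of total RNA, so no value has a replicate check, no p-value was computed, and differences are given by size. The RNA came from whole cultures, in which fewer cells that express a gene and less of its RNA per cell cannot be told apart.

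Amino acid transporters supply the building blocks of protein synthesis, the glutamine and glycine used in nucleotide synthesis, and the cystine used to make glutathione. Exchangers such as the light chains of the SLC7 family, which reach the membrane bound to a heavy chain of the SLC3 family, trade an internal amino acid for an external one. Sodium-coupled carriers of the SLC38 family load the cell with neutral amino acids that are traded. In leukaemic and other dividing cells several of these genes are under the control of ATF4, the transcription factor of the amino acid response, and SLC7A11 also under that of NRF2, the factor of the oxidative stress response.

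Promoter sequences of RefSeq (GRCh38.p14), each 300 bases long, from 250 before to 50 after a gene start, were available for 47 of the 62 genes, 30 of them among those measured here, in 70 windows. A list of 3 motifs was searched on both strands. The antioxidant element bound by NRF2, written TGACNNNGC, was found in 8 of the 70 windows (11.43%), against 13.35% of all 35116 windows. The genes were SLC1A3, SLC1A5, SLC38A2-AS1, SLC3A2, SLC7A1, SLC7A5, SLC7A6 and SLC7A7. The composite element bound by ATF4 with its C/EBP partners, written TGATGNAA, was found in 6 windows (8.57%), against 3.62% of all windows. Its genes were SLC1A3, SLC1A4, SLC1A5, SLC38A1, SLC3A2 and SLC7A1. The T-box half-site AGGTGTGA was found in 0 of the 70 windows and in 0.98% of all windows. No promoter entry was used for SLC7A11. The stretches before the starts of SLC3A2 and SLC7A1 are shown. SLC3A2 is the heavy chain that SLC7A11 requires, and SLC7A1 is the widely expressed arginine and lysine transporter. Both genes hold both of the commoner motifs, as do SLC1A3 and SLC1A5. The match to TGATGNAA lies after the start, at bases 38 to 45 in SLC3A2 and 8 to 15 in SLC7A1, outside the stretches shown. Capitals mark the match to TGACNNNGC, at bases -37 to -29 before the start of SLC3A2 and -85 to -77 before that of SLC7A1. The first lies at chr11:62881549-62881698 on the plus strand and the second at chr13:29595689-29595838 on the minus strand. A match describes the letters in a window and is no evidence of binding.
SLC3A2: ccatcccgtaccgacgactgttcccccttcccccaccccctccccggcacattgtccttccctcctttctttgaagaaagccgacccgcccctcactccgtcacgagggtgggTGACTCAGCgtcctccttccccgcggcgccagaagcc
SLC7A1: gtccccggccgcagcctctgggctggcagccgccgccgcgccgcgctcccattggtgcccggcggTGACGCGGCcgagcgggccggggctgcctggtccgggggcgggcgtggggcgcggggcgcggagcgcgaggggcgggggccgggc

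Signals are the MAS5 intensities of the deposited data in arbitrary units, on arrays scaled to the same trimmed mean. A probe set was called measured when its signal on at least 1 array lay above a floor of 146, the higher of the array medians, and lower signals were raised to that floor before a ratio was taken. A fold difference against a floored signal is a lower bound, written as at least. Log2 ratios are those of siRNA-Tbet over siRNAc, so that a negative value means a lower signal with siRNA-Tbet. Each gene was read from its probe set with the highest mean signal. The spread between probe sets of 1 gene on these arrays, on the log2 scale, served as a measure of technical noise and was 0.40 at a median signal of 217 and 0.12 at one of 9912. It holds no variation between cultures.

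TBX21, which encodes T-bet, had a signal of 3581 with siRNAc and 1839 with siRNA-Tbet, 51.3% of the control. IFNG, the interferon gene that IL-18 induces, read 35136 with siRNAc and 31243 with siRNA-Tbet (log2 ratio -0.17). The progenitor marker CD34 read 15839 with siRNAc and 17130 with siRNA-Tbet. Of the 8 KG1 markers on the array, 7 were measured, the exception being KIT. Among the 7, MPO was dim, below the floor at 127 with siRNAc and at 210 with siRNA-Tbet. Of the other cell types' markers, CD3E of 3 T cell genes, CD79A and MS4A1 of 2 B cell genes, HBB, and COL1A1 and DCN of 3 fibroblast genes were measured, at signals of at most 610 on either array, and 0 of 3 epithelial genes were. Over 12309 measured genes the median log2 ratio was -0.02.

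Of the 62 transporter genes, 37 were measured and 28 of these lay above the floor on both arrays. The median log2 ratio of the 37 was -0.02, the same as over all measured genes to 2 decimals, and their mean was -0.10, against -0.03 over all. Ratios lay above 0 for 15 genes (40.5%) and below 0 for 22, against 46.5% above 0 among all genes. Among the 28 above the floor on both arrays they ran from -0.64 to 0.23, and the other 9 have only bounds. Counts by size used floored signals at the chosen probe sets, for members and all genes alike, so the 9 bounds may hide larger differences. The other measured probe set of SLC7A8, not counted here, was 2.17-fold lower. By this count 0 of the 37 were at least 1.5-fold higher with siRNA-Tbet, where 2.04% of all measured genes were. At least 1.5-fold lower were 2, SLC7A11 and SLC6A11, where 2.92% of all were. By the same count 0 passed 2-fold in either direction, which 0.244% of all genes did upward and 0.325% downward. Counts of 0 and 2 in 37 genes are near these background shares.

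**Figure D1:**
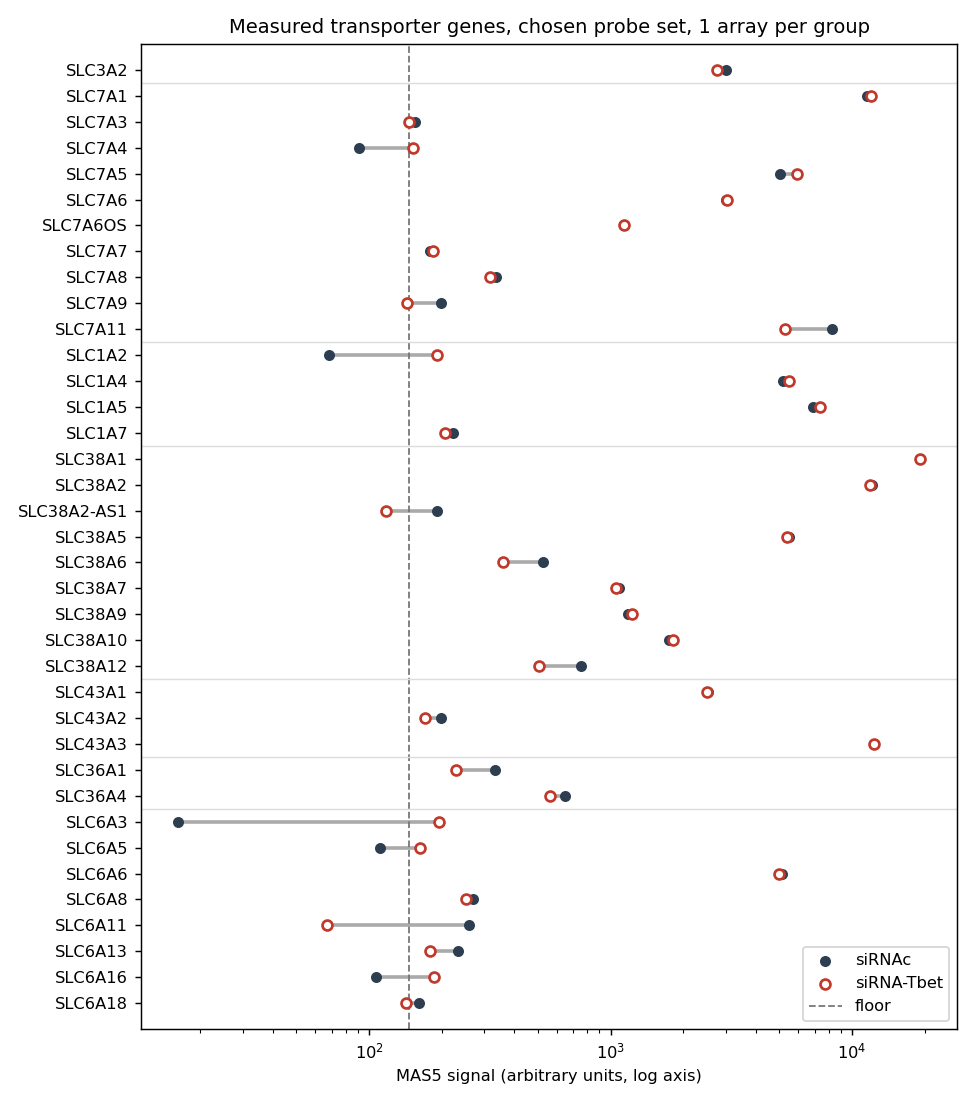
MAS5 signal of the 37 measured transporter genes on a log axis, with a filled circle for the siRNAc array, an open circle for the siRNA-Tbet array and a dashed line at the floor of 146. Genes are grouped by family; most pairs of circles overlap, SLC7A11 is the bright gene whose circles stand apart (8229 and 5268), and the other wide pairs lie at signals of 756 or less.

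Most of the members that KG1 cells expressed well were close to equal on both arrays. Of the 17 members whose mean signal lay above 914, the 75th percentile of the arrays, 16 (94.1%) were within 1.2-fold, as were 86.4% of all 7404 genes of that brightness. Their median log2 ratio was 0.00, with 9 above 0. None of the 17 was at least 1.5-fold higher (0.405% of all bright genes) and 1, SLC7A11, was at least 1.5-fold lower (0.662% of all bright genes). These 17 genes include the main carriers of cystine, arginine, glutamine and leucine described next. They also include SLC7A6OS, which is no transporter, and the nucleobase carrier SLC43A3.

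The heavy chains came first by role. SLC3A2, also called CD98 or 4F2hc, carries the light chains of the SLC7 family to the surface and read 3009 with siRNAc and 2755 with siRNA-Tbet (log2 ratio -0.13, spread 0.17). The difference is smaller than the spread between probe sets. SLC3A1, the heavy chain of kidney and gut, lay below the floor on both arrays.

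Among the light chains, SLC7A11 (xCT) had the largest ratio in size at the chosen probe sets. With SLC3A2 it forms system xc-, which takes up cystine in exchange for glutamate and so supplies glutathione synthesis. Its brightest probe set read 8229 with siRNAc and 5268 with siRNA-Tbet, 1.56-fold lower (log2 ratio -0.64). Its second read 6937 and 4881, 1.42-fold lower (log2 ratio -0.51), and its dimmest read 504 and 453 (log2 ratio -0.15, within the spread of 0.34 at that signal). All 3 probe sets were therefore on the lower side, and the brightest differed by 5.16 times the spread of 0.12. That spread belongs to the brightest of 10 signal bins, and it was 0.16 in the next, which holds the second probe set. In the signal decile of SLC7A11, 4 of 1231 genes, itself included, had a ratio as low, around a median of -0.01. It was the only member past 3 times the spread, as were 150 of all 12309 genes. Among genes with at least 2 measured probe sets, both of the brightest were at least 1.4-fold lower for 27 of 6140 genes (0.44%), and SLC7A11 was the only one of 16 such members, a rule set after these values had been seen.

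**Figure D2:**
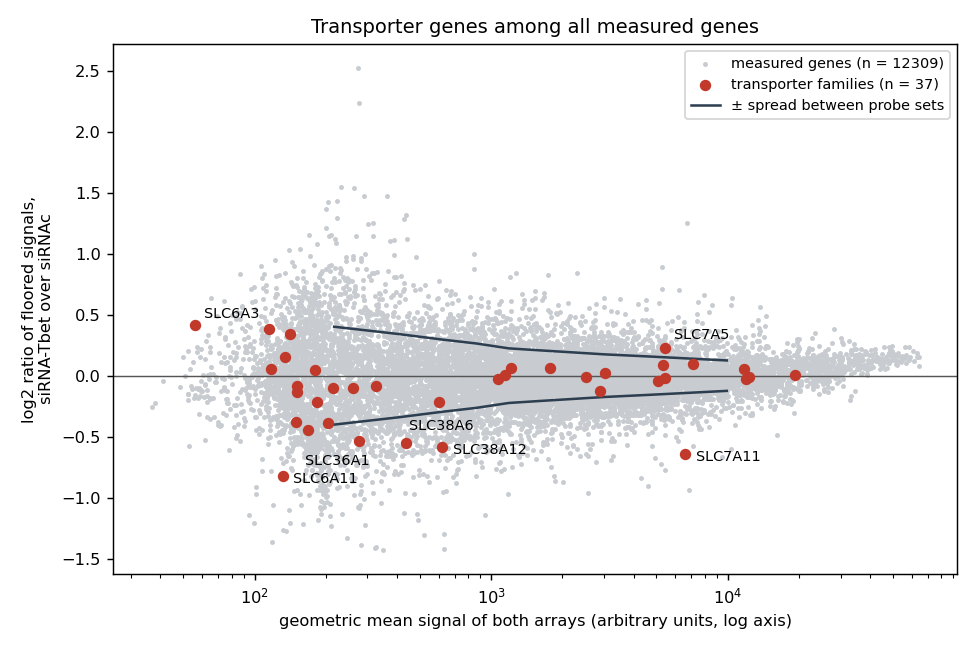
Log2 ratio of floored signals, siRNA-Tbet over siRNAc, against the geometric mean signal of both arrays for all 12309 measured genes (grey) and the 37 transporter genes (red), with lines at plus and minus the spread between probe sets. Bright members sit within or near the lines except SLC7A11 at -0.64, and SLC7A5 lies just above the upper line at 0.23.

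Of the 6 measured light chains, SLC7A11 included, 3 had ratios above 0 and 3 below. SLC7A5 (LAT1), the exchanger that brings in leucine and other large neutral amino acids, read 5038 with siRNAc and 5892 with siRNA-Tbet, 16.9% higher (log2 ratio 0.23, spread 0.16), and 73 of the 1231 genes in its signal decile were as high. It was the highest ratio among the members above the floor on both arrays, although its pseudogene copies SLC7A5P1 and SLC7A5P2 may share its probes. SLC7A6 (y+LAT2), which exports arginine in exchange for glutamine and sodium, read 3002 and 3049 at its brightest probe set (log2 ratio 0.02), 1413 and 1851 at the second (0.39), and 912 and 975 at the dimmest (0.10). All 3 were on the higher side, with sizes that differed beyond the spread of 0.21 at the second. SLC7A7 (y+LAT1), the leucocyte and gut counterpart, was just above the floor at 178 with siRNAc and 184 with siRNA-Tbet. SLC7A8 (LAT2), a second exchanger of neutral amino acids, read 336 and 317 at the chosen probe set (log2 ratio -0.08). Its other measured probe set, whose probes can cross-hybridise, read 319 with siRNAc and 147 with siRNA-Tbet (log2 ratio -1.12), so its probe sets disagree in size. With the second-brightest probe set of each gene, or the median over probe sets (-0.60 for SLC7A8), SLC7A8 and not SLC7A11 (-0.51 in both) was the light chain past 1.5-fold. SLC7A9, the light chain of SLC3A1, was at 199 with siRNAc and below the floor at 144 with siRNA-Tbet, at least 1.36-fold lower. SLC7A10, which carries small neutral amino acids, and SLC7A13 were not above the floor on either array.

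The cationic amino acid transporters take up arginine, lysine and ornithine without a heavy chain. SLC7A1 (CAT1) was bright at 11508 with siRNAc and 11939 with siRNA-Tbet (log2 ratio 0.05). Its next probe sets read 593 and 604 (0.03), 350 and 312 (-0.16), and 137 and 184 (0.33, a bound), on both sides of 0. SLC7A3 (CAT3) was at the floor with 155 and 147, and SLC7A4, a relative for which transport activity is not established, was at 91 with siRNAc and 152 with siRNA-Tbet. SLC7A2 (CAT2), the form associated with arginine use in activated macrophages, lay below the floor on both arrays.

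The neutral exchangers of the SLC1 family differed by less than the spread at their chosen probe sets. SLC1A5 (ASCT2), a main glutamine carrier of dividing cells, had 1 probe set at 6885 with siRNAc and 7349 with siRNA-Tbet (log2 ratio 0.09, spread 0.12). SLC1A4 (ASCT1), which exchanges alanine, serine, cysteine and threonine, read 5162 and 5470 at its brightest probe set (0.08, spread 0.16). Its others read 4173 and 4798 (0.20), 2323 and 2637 (0.18), 737 and 894 (0.28), and 370 and 326 (-0.18). Of these 5 probe sets, 4 were higher and the dimmest was lower. In the glutamate group of the same family, SLC1A7 (EAAT5) was dim at 222 and 207, and SLC1A1, SLC1A3 and SLC1A6 lay below the floor. SLC1A2 (EAAT2), the main glutamate carrier of astrocytes, was at 69 with siRNAc and 191 with siRNA-Tbet, at least 1.31-fold higher. That value rests on 1 of its 6 probe sets, and the others lay below the floor on both arrays.

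System A carriers bring in alanine, serine and glutamine with sodium. SLC38A1 (SNAT1) read 19162 with siRNAc and 19184 with siRNA-Tbet (log2 ratio 0.00). Its other measured probe sets read 11954 and 12369 (0.05) and 751 and 885 (0.24). SLC38A2 (SNAT2), which cells raise when amino acids are short, read 12096 and 11902 (-0.02), and its 2 other probe sets, whose probes can cross-hybridise, read 19051 and 19603 (0.04) and 13712 and 13591 (-0.01). Both genes were thus within 1.2-fold at the chosen probe set, and SLC38A4, also of system A, lay below the floor. SLC38A5 (SNAT5), a system N carrier that moves glutamine, histidine and glycine with sodium against a proton, read 5476 and 5392 (-0.02), while SLC38A3, its counterpart of liver and brain, was below the floor.

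Of the remaining SLC38 genes, the larger ratios came from dim probe sets. SLC38A12 had 1 probe set at 756 with siRNAc and 505 with siRNA-Tbet, 33.2% lower (log2 ratio -0.58), the value nearest to the threshold of 1.5-fold from below, and 41 of the 1231 genes in its signal decile were as low. SLC38A6, also with 1 probe set, read 527 and 360 (-0.55, 1.61 times the spread of 0.34). SLC38A10 read 1740 and 1822 at its brightest probe set (0.07), but its other measured ones read 641 and 523 (-0.29) and 184 and 134 (-0.33, a bound), so the direction depends on the probe set. The antisense RNA SLC38A2-AS1 was at 191 with siRNAc and 118 with siRNA-Tbet, at least 1.30-fold lower. SLC38A11 and the antisense RNA SLC38A4-AS1 were below the floor.

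**Figure D3:**
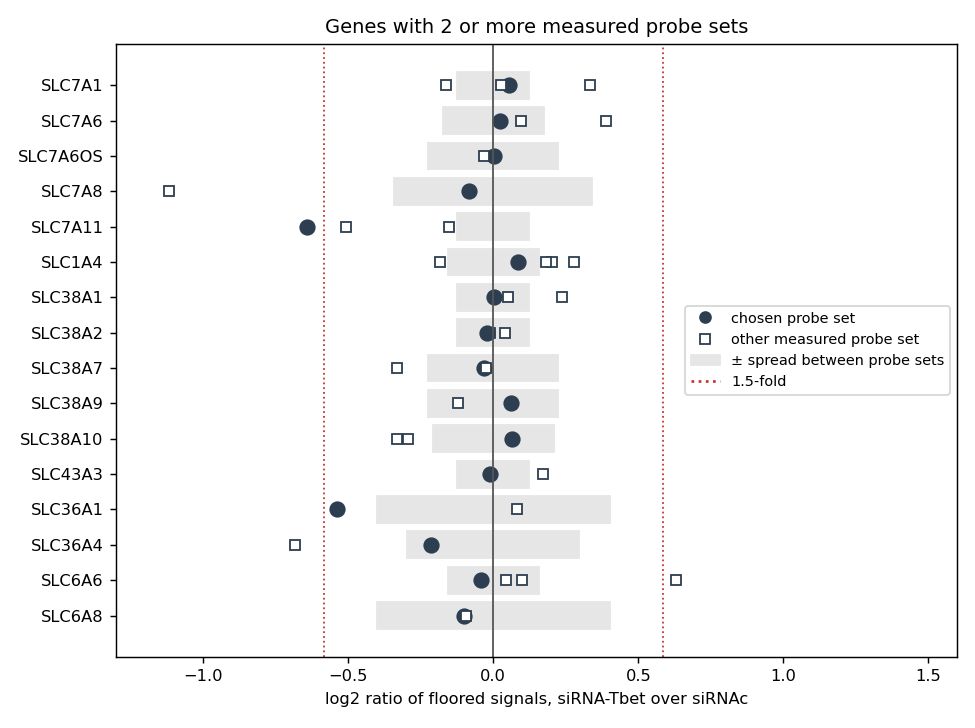
Log2 ratio of every measured probe set of the 16 transporter genes that had at least 2, with a filled circle for the chosen probe set, open squares for the others, grey bars for the spread at the chosen probe set's signal and dotted lines at 1.5-fold. SLC7A11 is the gene whose 2 brightest probe sets both lie outside the grey bar on the lower side, and single probe sets of SLC7A8, SLC36A4 and SLC6A6 lie past a dotted line.

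The lysosomal group links amino acid stores to the kinase complex mTORC1. SLC38A9, the lysosomal arginine sensor, read 1183 with siRNAc and 1233 with siRNA-Tbet (log2 ratio 0.06) and 327 and 300 at its other probe set (-0.12). SLC38A7 (SNAT7), which exports glutamine from lysosomes, read 1082 and 1059 (-0.03), 749 and 735 (-0.03), and 658 and 523 (-0.33). SLC36A1 (PAT1), which exports small amino acids with protons, read 333 and 229 (-0.54) at 1 probe set and 144 and 155 (0.08) at the other, on opposite sides of 0. SLC36A4 (PAT4), which carries tryptophan and proline, read 649 and 560 (-0.21), and its dimmer probe set read 235 with siRNAc and 123 with siRNA-Tbet, at least 1.61-fold lower. SLC7A14 lay below the floor. Ratios of 3 of the 4 measured lysosomal genes were below 0, with a median of -0.12, and all 4 were read at signals of at most 1233.

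In the SLC43 family, SLC43A1 and SLC43A3 were level at their chosen probe sets. SLC43A1 (LAT3), which lets large neutral amino acids through by facilitated diffusion, read 2536 with siRNAc and 2517 with siRNA-Tbet (log2 ratio -0.01), and SLC43A2 (LAT4), with the same kind of transport, was dim at 198 and 170 (-0.22). The nucleobase carrier SLC43A3 read 12386 and 12293 (-0.01), and 7516 and 8466 (0.17) at its other probe set.

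Most SLC6 genes, which carry neurotransmitters and other amino acids with sodium and chloride, were near or below the floor: 8 of 19 were measured. SLC6A6, the taurine transporter, was the bright one at 5127 with siRNAc and 4976 with siRNA-Tbet (log2 ratio -0.04). A dim probe set of it read 148 and 229 (0.63), the only measured probe set of the families at least 1.5-fold higher, while its others read 304 and 313 (0.04) and 136 and 157 (0.10, a bound). SLC6A11 (GAT3), a GABA transporter of the brain, read 258 with siRNAc and 67 with siRNA-Tbet, at least 1.76-fold lower. Its 3 other probe sets lay below the floor on both arrays, at 94.3 and 41.8, 34.5 and 47.6, and 53.5 and 5.27 with siRNAc and siRNA-Tbet in that order, so its value rests on 1 dim probe set, and it did not pass when the mean of both arrays had to lie above the floor. SLC6A13 (GAT2) read 233 and 178 (-0.39). SLC6A5, the glycine transporter of glycinergic neurons, read 111 with siRNAc and 162 with siRNA-Tbet, and SLC6A18, a kidney carrier of neutral amino acids, read 161 and 143, both as bounds. SLC6A16, with no settled substrate, read 107 with siRNAc and 186 with siRNA-Tbet, at least 1.27-fold higher. Its other probe set lay below the floor on both arrays, at 46.4 with siRNAc and 22.1 with siRNA-Tbet. The dopamine transporter SLC6A3 read 16.2 and 195, at least 1.33-fold higher. The creatine transporter SLC6A8 read 270 and 252 (-0.10) and 183 and 172 (-0.09), but a probe set shared with its copies SLC6A10P and SLC6A10PB read 261 and 391 (0.58), so this gene is uncertain.

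The other SLC6 genes on the array, SLC6A2, SLC6A4, SLC6A7, SLC6A9, SLC6A12, SLC6A14, SLC6A15, SLC6A17, SLC6A19 and SLC6A20, were not above the floor on either array, nor were the antisense RNAs SLC6A12-AS1, SLC7A11-AS1 and SLC7A14-AS1. With the genes named above this makes 25 members without a measured probe set, whose best signals ran from 14.2 to 135. SLC7A6OS, which is no transporter, read 1139 with siRNAc and 1141 with siRNA-Tbet, and 566 and 553 at its other probe set.

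Counted by probe set and not by gene, 66 of the 147 were measured. Of these, 1 was at least 1.5-fold higher, as were 2.87% of all 23477 measured probe sets, and 4 were at least 1.5-fold lower, as were 3.23%. The 4 belong to SLC7A11, SLC7A8, SLC36A4 and SLC6A11. Of the 16 members with at least 2 measured probe sets, 7 had them all on 1 side of 0: SLC7A11, SLC7A8, SLC36A4, SLC38A7 and SLC6A8 on the lower side and SLC7A6 and SLC38A1 on the higher. Of all 6140 genes with at least 2 measured probe sets, 41.4% had them on 1 side, a share near that of the members. None of the 16 had every probe set at least 1.2-fold to 1 side, as 3.57% of the 6140 did, and the chosen probe set of SLC38A1 moved from 0.00 to -0.04 under quantile normalization and under removal of the trend of ratio on signal.

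The genes around these transporters were read from lists. Of all measured genes, 46.5% lay above 0, 2.04% were at least 1.5-fold higher and 2.92% at least 1.5-fold lower. Of the list for cystine, glutathione and NRF2, 15 of 15 genes were measured, 7 above 0 and 8 below, with a median log2 ratio of -0.03. Its only gene past 1.5-fold was GSR, glutathione reductase, at 1212 with siRNAc and 795 with siRNA-Tbet (log2 ratio -0.61), whose other probe set was at 0.20. The next largest were GGT1, which splits extracellular glutathione (293 and 218.5, -0.42), TXNRD1, a thioredoxin reductase (13445 and 15878, 0.24), and CD44, a surface glycoprotein that binds xCT (20432 and 23852, 0.22). The list was thus on both sides of 0 while SLC7A11 was lower.

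Of the ATF4 and amino acid response list, 20 of 23 genes were measured, 13 above 0 and 7 below, with a median of 0.06. DDIT3 (CHOP), a stress transcription factor, was at 106 with siRNAc and 376 with siRNA-Tbet, at least 2.57-fold higher, from 1 probe set. STC2, a secreted glycoprotein, was at 96 and 216, at least 1.48-fold higher. ATF5 was lower, at 959 and 675 (log2 ratio -0.51), with -0.54 at its other probe set, and DDIT4, an inhibitor of mTORC1, was higher at 3392 and 4447 (0.39). Only DDIT3 passed 1.5-fold.

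Of the genes for amino acid sensing by mTORC1, 32 of 33 on the array were measured, 16 above and 16 below 0, with a median of 0.00. CASTOR2, a relative of the arginine sensor CASTOR1, was at 276 with siRNAc and 689 with siRNA-Tbet, 2.49-fold higher from 1 probe set, but the gene has near-identical copies and is uncertain. The next largest were the GTPase RRAGB (268 and 381, 0.50), the leucine sensor SESN1 (1749 and 1371, -0.35) and the mTOR subunit MLST8 (1911 and 1519, -0.33), none of which passed 1.5-fold.

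Of the enzymes that use imported amino acids, 18 of 23 were measured, 11 above and 7 below 0, with a median of 0.04. IDO1, which degrades tryptophan and is induced by interferon-γ, was lower at 405 with siRNAc and 256 with siRNA-Tbet (log2 ratio -0.66, 1 probe set) and alone passed 1.5-fold. The arginase ARG2 was at 270 and 185 (-0.54, with 0.30 at its other probe set), ASL, of arginine synthesis, at 1296 and 960 (-0.43), and BCKDHB, of branched-chain breakdown, at 559.8 and 717 (0.36). Of the partners and regulators of these transporters, 8 of 10 were measured, 3 above and 5 below 0, with a median of -0.11. The kinase SGK1, which stimulates several amino acid carriers, was lower at 1083 and 675 (-0.68, 1 probe set). The ubiquitin ligase NEDD4 was at 474 and 347 (-0.45), BSG, a chaperone of other transporters, at 3592 and 4360 (0.28), and TXNIP at 4786 and 4131 (-0.21). Of 11 amino acid and peptide transporters of other families, 5 were measured, with a median of -0.06. SLC17A7, the vesicular glutamate transporter, was lower at 429 and 249.8 (-0.78, with -0.44 at its other probe set), and CTNS, the lysosomal cystine exporter, read 919 and 682 (-0.43, with 0.08 at its other probe set).

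**Figure D4:**
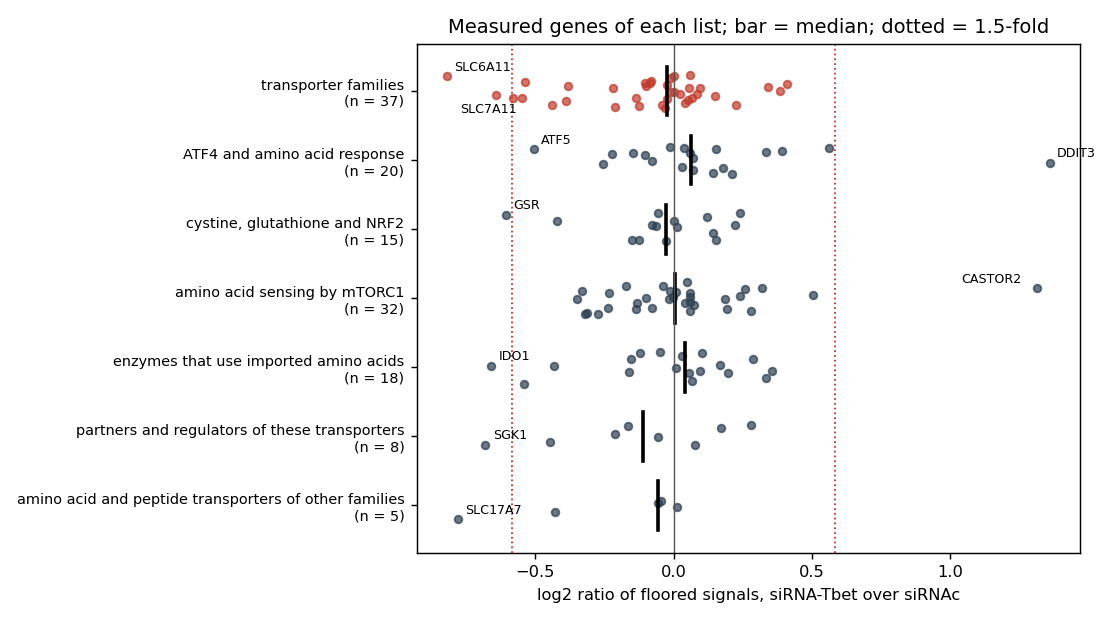
Log2 ratio of floored signals, siRNA-Tbet over siRNAc, for each measured gene of the 37 transporter genes (red) and of 6 lists of related genes (dark), with a bar at each list's median and dotted lines at 1.5-fold. Vertical position within a list has no meaning; each median lies between -0.11 and 0.06, and the genes past 1.5-fold are named, as is ATF5.

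The housekeeping genes ACTB, B2M, GAPDH, HPRT1, PPIA and TBP had log2 ratios from 0.00 to 0.17, with a median of 0.14, at signals of 2816 and more. The ratio had a slight trend on signal, with a median of 0.04 in the top signal decile against -0.01 in the decile that holds SLC7A11. Removing this trend left SLC7A11 past 1.5-fold.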

How the data were processed

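Total RNA of KG1 cells was measured on 2 arrays, 1 per group. The deposited columns hold linear intensities, 1 value a probe set, which the authors made with MAS5, per the submitters' processing notes (release not given in the sources used here). On each array they had a trimmed mean near 1000.1, so no further scaling was applied. MAS5 subtracts mismatch signal, which makes low intensities noisy. The number of arrays limits the precision.

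Of 54675 probe sets, 41097 name 1 gene in the platform annotation, 1801 name several and 11777 are unnamed here. The 62 control probe sets among them were left out of the array medians. Of those with 1 gene, 41043 matched RefSeq (GRCh38.p14), which updated their symbols. Signals below 146 were raised to that value on both arrays, and a gene or probe set counted as measured when above it on at least 1 array. The probe set brightest by its mean on the log2 scale stood for its gene, and one with the suffix _x_at did so only where the gene had no other. Fold differences of 1.5 and 2 were counted as sizes, not tests. The spread is the SD, over the square root of 2, of the difference in log2 ratio between the 2 brightest probe sets of a gene, in 10 signal bins.

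Every measured member is named with both signals, members past 1.5-fold with all probe sets, and of each other list at most 4 genes, those with the largest ratios; a few further probe sets are given where they disagree. The members and lists were chosen with earlier results of these data known. The calculation was tested on simulated data, with 2-fold changes planted in brighter genes and the same noise at every signal. That test does not cover smaller changes or dim probe sets. A planned comparison of protein sequences was not run. Alternatives were 3 other scalings, other floors, other choices of probe set, other member rules and folds of 1.2 and 2. A filter on the mean of both arrays, the bright-gene shares, the shares of genes with all probe sets on 1 side and the 1.4-fold rule were added after seeing the data. Python 3.11.15, pandas 2.3.3, numpy 2.4.6, statsmodels 0.14.6 and matplotlib 3.10.9 were used.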

Additional observations from a re-analysis of the deposited data

How the results depend on the processing

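The groups have 1 array each, so no replicate could be left out, and the only error measure was the spread between probe sets. No paired analysis was possible because each group holds 1 sample and no result comes from a test. Under each other scaling, floor, filter, choice of probe set and member rule, the members' median log2 ratio stayed between -0.04 and 0.00. Counts moved with the floor. With the floor at the 25th percentile, 8 members were at least 1.5-fold higher, 6 lower and 28 of 59 above 0. Of all genes, 10.5% were higher and 10.5% lower at that floor. With the floor at the 75th percentile, 1 member was lower, where 0.586% of all genes were, and 9 of 17 were above 0. With no floor or filter, 10 were higher, 11 lower and 29 of 62 above 0, where 14.6% and 14.8% of all genes were higher and lower. The second-brightest probe set of each gene left 7 of 16 above 0. The filter on the mean of both arrays left 1 lower, where 2.88% of all genes were. At 2-fold 0 were lower, and at 1.2-fold 3 were higher and 8 lower. The higher ones, SLC1A2, SLC6A16 and SLC6A3, were all bounds, as were SLC6A11, SLC38A2-AS1 and SLC7A9 among the lower. Shares of all genes by direction were not counted at 1.2-fold. Within 1.2-fold lay 70.3% of the measured members and 74.7% of all measured genes. SLC7A11 lay between -0.64 and -0.51 and past 1.5-fold in each setting except the second-brightest probe set and the median over probe sets, both -0.51, where SLC7A8 was past 1.5-fold instead (-1.12 and -0.60). SLC36A1 was at 0.08 with its second probe set, SLC38A10 at -0.29, and SLC1A4 was at -0.18 with probe sets of plain suffix only. Of the single-gene values, 21 moved by more than the spread and 365 did not.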
